A study of Mus musculus with 8 samples.

Results

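The comparison is between mouse CD8+ T cells treated with SGC-CBP30 and the same kind of cells treated with a polyamide labelled Ctrl PIP. It holds the 2 libraries of each group that the sample labels name, 4 of the 8 libraries in the series, and it was fitted on those 4 alone because their replicates lay closest together. The cells came from lymph node and spleen of C57BL/6 mice, and received T cell receptor stimulation through antibodies to CD3 and CD28. The protocol in the labels speaks of treatment for 48 hours with PIPs (pyrrole-imidazole polyamides, synthetic molecules that bind the DNA minor groove) and gives no dose for any agent. It does not name SGC-CBP30, so the same 48 hours for these cells is an assumption. The other 4 libraries are 2 of DMSO, the solvent control, and 2 of EnPGC-1, another agent of the series. Nothing in the labels ties a replicate to its own mouse or culture, so the p-values below measure only the spread between these libraries. Since the libraries were chosen for close replicates, that spread may be too small and the p-values too low. Ctrl PIP is itself an added compound, so an effect of SGC-CBP30 in one direction and an effect of Ctrl PIP in the other cannot be told apart within these 4 libraries, and DMSO values are given beside the main results for that reason.

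SGC-CBP30 is a small molecule that binds the bromodomains of CBP (gene Crebbp) and p300 (gene Ep300), the modules with which these coactivators read acetylated lysines. CBP and p300 acetylate histones and many transcription factors and act mainly at enhancers and promoters of inducible genes. In CD8+ T cells, stimulation through the receptor and CD28 drives growth through MYC, uptake of amino acids and glucose, and the start of effector programmes such as granzymes, cytokines and inflammatory chemokine receptors, while genes of lymphoid homing and quiescence are turned down.

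Library totals ran from 50545906 to 53654673 counts, with 18431 to 19057 genes detected. Cd8a, the chain that defines the lineage, stood at 1081 and 930.3 CPM (counts per 1000000 reads counted) with SGC-CBP30 and at 934.2 and 919.2 CPM with Ctrl PIP, and 0 of 20 CD8 T cell markers were lower and 2 higher (0 higher without Ctrl PIP replicate 1 or SGC-CBP30 replicate 1). The label therefore fitted its markers in all 4 libraries. Across genes, Pearson's r between log2 values was 0.9837 for the SGC-CBP30 pair, 0.9808 for the Ctrl PIP pair and 0.9665 to 0.9747 across the groups. The 4 libraries had been chosen for the closeness of these pairs.

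Cells treated with SGC-CBP30 had lower mRNA levels of the granzyme gene Gzmb, the chemokine receptor gene Ccr2, the chemokine gene Xcl1 and the transcription factor gene Myc. Of genes for ribosome assembly 39 of 53 were lower, and of genes for amino acid, polyamine and nucleotide synthesis 24 of 41. Genes at a higher level included a pair of β-tubulin genes, the gut-homing receptor gene Ccr9, and the MYC antagonist genes Mxd4 and Mxd1. Of 43 histone methyltransferases and demethylases 18 were higher, but 4 with the correction for transcript length and GC content described below. Of 15660 genes tested with edgeR's quasi-likelihood test at a Benjamini-Hochberg adjusted p of 0.05, 1138 were higher (7.27%) and 1332 lower (8.51%) with SGC-CBP30. The median log2 fold change was 0.69 among the former and -0.67 among the latter, against 0.01 over all genes tested. Of these 2470 genes (15.8%), at least a 2-fold difference was seen for 226 of the higher and 252 of the lower genes. DESeq2's Wald test called 1609 (10.3%) and 1799 (11.5%). Groups that did not overlap, whatever the test, were found for 32.0% of genes in the higher and 32.1% in the lower direction. The counts leaned on single libraries: without SGC-CBP30 replicate 1 they were 226 and 344, and without Ctrl PIP replicate 1 they were 747 and 959. When all 8 libraries were fitted together, with the far wider spread of the DMSO and EnPGC-1 replicates, 0 genes were called (239 higher and 429 lower at an unadjusted p of 0.05).

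**Figure D1:**
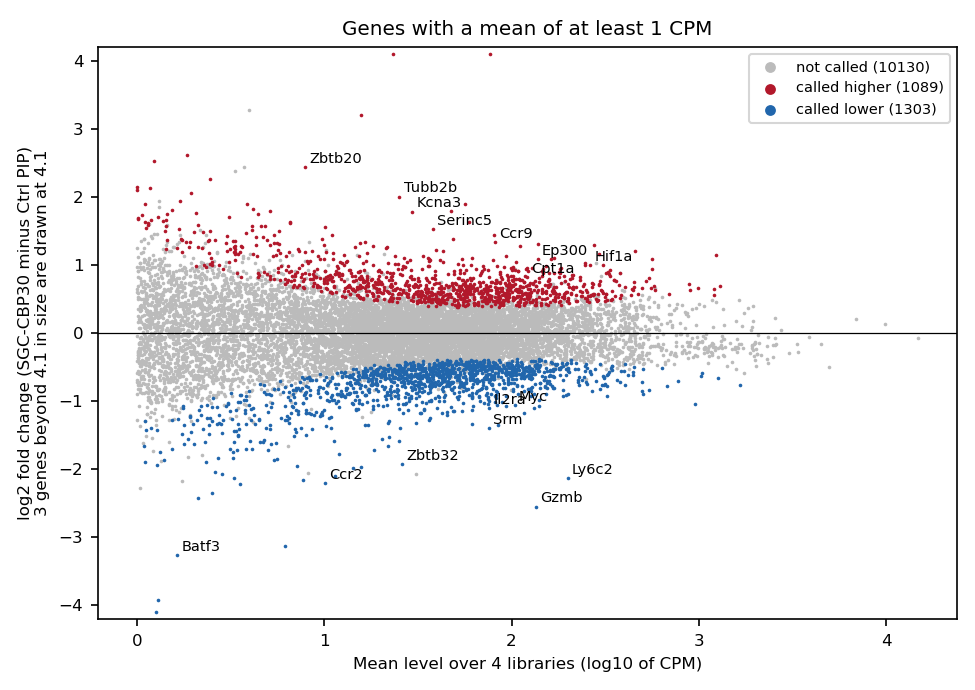
Log2 fold change between SGC-CBP30 and Ctrl PIP (vertical axis) against the mean level over the 4 libraries in CPM (horizontal axis, log10 scale) for each gene with a mean of at least 1 CPM; red and blue points passed the test as higher or lower, and 3 genes outside the range are drawn at its edge. Gzmb (log2 fold change -2.55) and Ly6c2 (-2.13) lie apart from other well-expressed genes on the lower side, and Tubb2b (2.0) on the upper side.

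Transcript length moved with the comparison. Across 9322 well-measured genes, the log2 fold change had a Spearman correlation of 0.55 with transcript length (a description across genes, which share the same 4 libraries), and the median length was 5886 bases for higher genes, 2032 for lower genes and 2966.5 for all genes with a length. With genes cut into 4 length classes of like size, 767 of the longest class were higher and 101 lower, whereas in the shortest class 43 were higher and 506 lower. A fit with per-library offsets for length and GC content brought that correlation to 0.06 and called 597 genes higher (3.81%) and 989 lower (6.32%), of which 482 and 755 were also called without offsets in the same direction. The offsets were fitted to each library's own trend with length and GC content, so the drop of the correlation was built in. They would also take out a treatment difference that goes with length. Values with these offsets are given below as "offset" values. Of the 184 genes that passed the test and are covered by the naming rule, 82 kept their call with the offsets and without each of the 4 libraries; a named gene that did not is marked where its test is given.

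**Figure D2:**
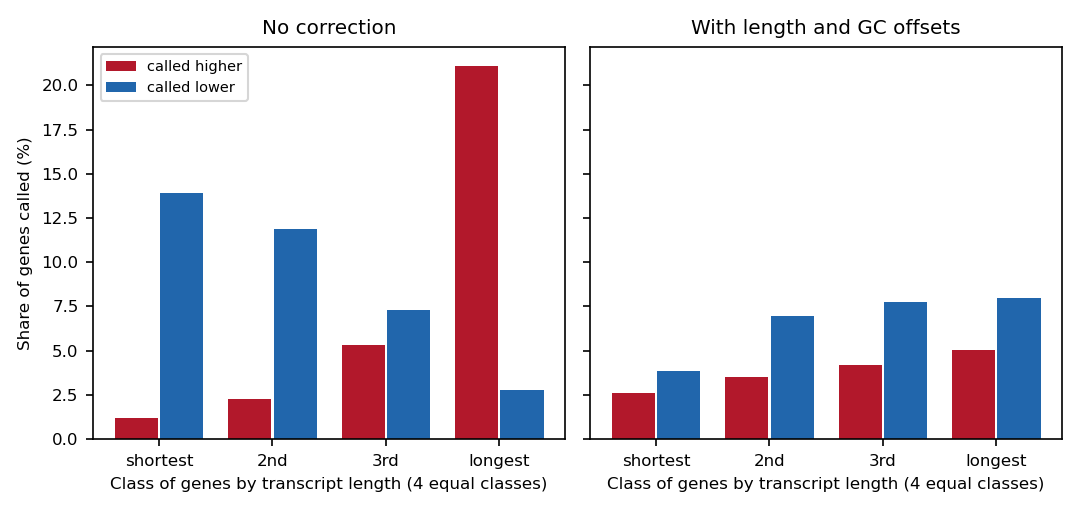
Share of genes called higher (red) or lower (blue) with SGC-CBP30 (vertical axis, percent) in each of 4 classes of genes by transcript length, without correction (left) and with offsets for length and GC content (right). In the longest class 21.1% of genes were higher and 2.78% lower without correction, and in the shortest class 1.18% and 13.9%.

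The DMSO replicates lay far apart from each other, and for 48.0% of all genes tested their range enclosed the means of both SGC-CBP30 and Ctrl PIP. Called genes divided on this point. For 657 of the 1332 lower genes (49.3%) both SGC-CBP30 libraries were below both DMSO libraries as well, and for 386 of the 1138 higher genes (33.9%) both were above both DMSO libraries, against 14.9% and 16.1% of all genes tested. These counts share the SGC-CBP30 libraries with the main comparison and are given without a test. Below they are given for most of the gene groups described.

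Effector molecules included Gzmb, the largest decrease among genes whose larger group mean reached 5 CPM and that the naming rule covers. Of 24 listed genes 19 could be tested. Of these, 8 were lower, 1 was higher and 10 did not pass the test, with a median log2 fold change of -0.52 (offset -0.46, with 3 lower and 1 higher). The lower count was 5 without SGC-CBP30 replicate 1 and also 5 without SGC-CBP30 replicate 2. All 8 lower members were below both DMSO libraries. Gzmb, on chromosome 14 at 56258836 to 56262334 (GRCm38.p6), encodes granzyme B, the serine protease with which killer cells trigger apoptosis in targets. Its level was 36.7 and 41.9 CPM with SGC-CBP30 and 274 and 185 CPM with Ctrl PIP, while the DMSO libraries had 221 and 490 CPM. Both SGC-CBP30 libraries thus lay far under both Ctrl PIP and both DMSO libraries. The EnPGC-1 libraries had 80.5 and 83.3 CPM (scaled over all 8 libraries). The difference from Ctrl PIP was -2.55 ± 0.20 (log2 fold change ± SE, n = 2 libraries per group, adjusted p from edgeR 0.0049). This is 5.85-fold, and the difference was -2.28 with the offsets.

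Nkg7, a granule membrane protein needed for degranulation, had 74.5 and 68.2 CPM with SGC-CBP30 against 176 and 145 CPM with Ctrl PIP and 161 and 197 CPM with DMSO (-1.17 ± 0.13, adjusted p 0.011). Ifng, the gene of interferon γ, had 2.79 and 2.29 CPM against 6.41 and 9.30 CPM (-1.63 ± 0.26, adjusted p 0.014), with 12.6 and 8.02 CPM in DMSO. Neither gene showed overlap between the groups. Granzyme A went the other way: Gzma had 12.7 and 15.5 CPM against 9.54 and 6.39 CPM (0.82 ± 0.22, adjusted p 0.047), a call that was lost without Ctrl PIP replicate 2 and without either SGC-CBP30 library, and DMSO stood at 13.2 and 12.6 CPM. The pore-forming perforin gene Prf1 did not pass the test, with 23.5 and 15.2 CPM against 25.1 and 24.3 CPM. Granzymes are encoded by similar genes, and the sources used here do not state how reads shared between copies were counted.

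Promoter sequences of the granule genes and of the chemokine gene Xcl1 are shown because the core motif of RUNX factors, which act at cytotoxic genes, stood in a larger share of these groups than of all genes tested. Each is the 250 bases before the RefSeq start, 5′ to 3′ on the gene's strand (GRCm38.p6), with capitals for TGTGGT, the RUNX core, and for TGANTCA, the AP-1 site, on either strand. The 4 sequences hold no overlap between the motifs. The regions are chr14:56262335-56262584 (minus strand) for Gzmb, chr7:43436888-43437137 (plus) for Nkg7, chr1:164935523-164935772 (minus) for Xcl1 and chr13:113100982-113101231 (minus) for Gzma.
Gzmb: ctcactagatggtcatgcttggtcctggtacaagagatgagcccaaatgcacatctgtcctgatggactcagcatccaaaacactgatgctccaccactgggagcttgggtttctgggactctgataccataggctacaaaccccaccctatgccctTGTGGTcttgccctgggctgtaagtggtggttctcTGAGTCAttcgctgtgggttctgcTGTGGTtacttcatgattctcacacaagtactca
Nkg7: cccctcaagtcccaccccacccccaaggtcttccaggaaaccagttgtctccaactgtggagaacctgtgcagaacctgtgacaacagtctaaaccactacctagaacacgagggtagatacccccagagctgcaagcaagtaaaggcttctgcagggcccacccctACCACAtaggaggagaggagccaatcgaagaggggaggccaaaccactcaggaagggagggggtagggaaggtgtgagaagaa
Xcl1: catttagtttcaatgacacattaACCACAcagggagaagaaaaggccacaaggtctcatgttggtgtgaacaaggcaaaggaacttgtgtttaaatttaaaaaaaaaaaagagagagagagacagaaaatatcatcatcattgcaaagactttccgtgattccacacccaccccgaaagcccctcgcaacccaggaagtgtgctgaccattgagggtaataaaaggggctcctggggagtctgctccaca
Gzma: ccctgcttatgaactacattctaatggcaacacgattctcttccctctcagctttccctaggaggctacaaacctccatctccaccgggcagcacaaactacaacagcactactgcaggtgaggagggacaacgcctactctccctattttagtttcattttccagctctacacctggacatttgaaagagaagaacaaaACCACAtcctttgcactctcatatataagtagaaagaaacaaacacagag

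In Gzmb the letters TGTGGT begin 93 and 34 bases before the start with the AP-1 letters between them, 58 bases before it; Nkg7, Xcl1 and Gzma each hold 1 RUNX core. Among the 11143 genes tested that have a promoter in the table, 13.6% hold TGTGGT in this window. The share was 44.4% of the effector list (8 of 18 genes), 46.7% of NK-type receptors (7 of 15) and 31.2% of chemokines and their receptors (5 of 16). Among all lower genes it was 14.2% and among all higher genes 11.3%, close to the background. TGANTCA stood in 5.37% of all promoters and in 6.03% of those of lower genes. The higher gene Gzma holds the motif as the lower genes do. A match is a description of letters and says nothing of binding. For 3 further motifs, searched in the same way on both strands, the shares lay on either side of the background. CACGTG, the E-box of MYC, stood in 6.38% of ribosome biogenesis promoters and 15.2% of those for amino acid, polyamine and nucleotide synthesis, against 9.49% of all. The palindromic motif of NRF1 stood in 13 of 62 respiratory chain promoters, in 21.4% of proteasome, 14.3% of mitochondrial ribosomal protein and 6.38% of ribosome biogenesis promoters, against 8.92%. TGATGNAA, a form of the ATF4 motif, stood in 3 of 13 promoters of aminoacyl-tRNA synthetases (23.1%) and in 0 of 47 of ribosome biogenesis, against 2.5% of all.

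Of 32 chemokines and their receptors 23 were tested and 19 reached the count minimum (10 counts in a library of median size, 0.193 CPM) in all 4 libraries. Among these 19, 10 were lower and 2 higher, with a median log2 fold change of -0.82. The other 4 fell short of it in SGC-CBP30 libraries, and the 1 called among them, Ccl9 (looked up after its values were seen), reached it only in Ctrl PIP, so that the filter set its direction. With them 11 were lower (offset 7 lower and 2 higher). The count of 11 was 7 without SGC-CBP30 replicate 2, and the higher count was 1 without Ctrl PIP replicate 1 or SGC-CBP30 replicate 1. Of the 11 lower members, 10 were below both DMSO libraries. Ccr2, which guides cells into inflamed tissue, had 3.19 and 4.02 CPM against 14.8 and 18.3 CPM (-2.20 ± 0.20, adjusted p from edgeR 0.0089; offset -2.45). Xcl1, which encodes a chemokine that attracts cross-presenting dendritic cells, had 5.11 and 5.73 CPM against 21.7 and 15.5 CPM (-1.77 ± 0.20, adjusted p 0.011). For both genes the replicates of a group lay close together relative to the gap between groups. In the other direction, the gut-homing receptor gene Ccr9 had 125 and 109 CPM with SGC-CBP30 and 40.3 and 52.8 CPM with Ctrl PIP, and both values exceeded the 64.9 and 20.1 CPM of DMSO (1.33 ± 0.15, adjusted p 0.011).

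Of 21 receptors of the NK family 17 were tested and 14 reached the count minimum in all 4 libraries. Among these 14, 7 were lower and 0 higher, with a median of -0.96. The other 3 reached it in both libraries of Ctrl PIP but not of SGC-CBP30, which set their direction, and with them 9 were lower (offset 2 lower). The count of 9 became 0 without SGC-CBP30 replicate 1 and 5 without SGC-CBP30 replicate 2. Of the 9, 6 were below both DMSO libraries. Klra8 and Cd244a had 0 counts in both SGC-CBP30 libraries. Against a floor of 3 counts per library, Klra8 was at least 7.22-fold lower and Cd244a at least 6.23-fold lower, and both calls were lost without either SGC-CBP30 library, that of Klra8 also with the offsets. The Klra genes are near-identical copies, so their separate values are uncertain. A better-measured gene was Cd160, a receptor of activated and exhausted cells listed among inhibitory receptors, with 12.3 and 12.9 CPM against 41.0 and 34.3 CPM and with 30.8 and 49.1 CPM in DMSO (-1.58 ± 0.14, adjusted p 0.0087). Of 18 inhibitory receptors tested 3 were lower (1 without SGC-CBP30 replicate 1 and 5 without Ctrl PIP replicate 2), all 3 were below both DMSO libraries, and Cd244a is one of them. Cd244a reached the count minimum only in Ctrl PIP, so that the filter set its direction. Among the 17 inhibitory receptors that reached it in all 4 libraries 2 were lower and 0 higher. With the offsets 3 of the 18 were lower and 1 higher. The genes Pdcd1, which encodes PD-1, and Lag3 did not pass the test.

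**Figure D3:**
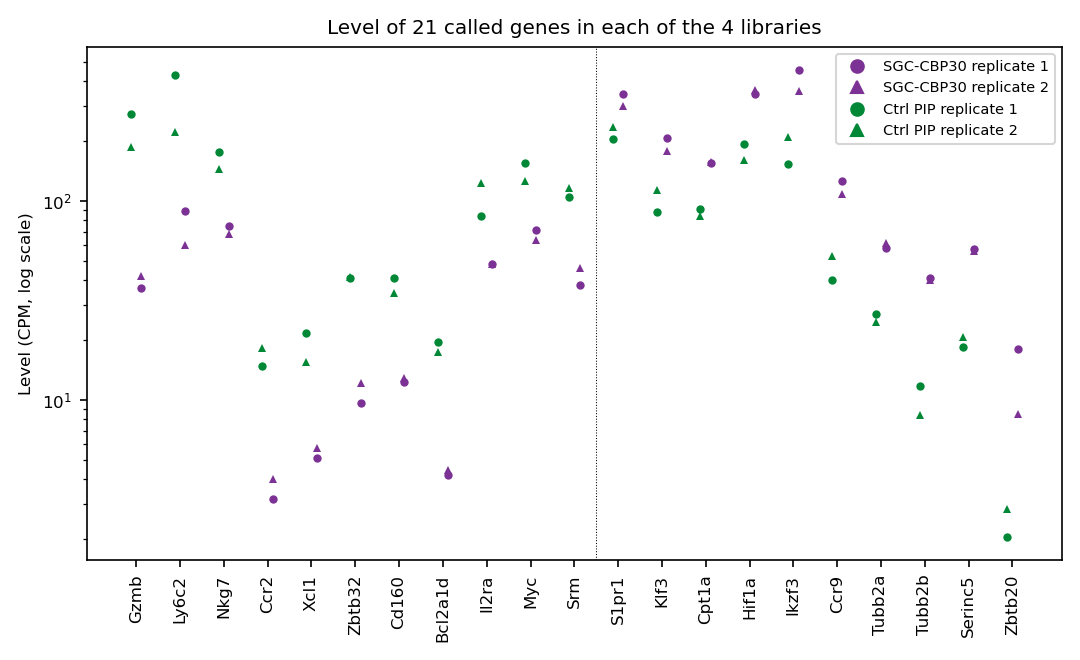
Level in CPM (vertical log axis) of 21 called genes in each of the 4 libraries, with SGC-CBP30 in purple, Ctrl PIP in green, circles for replicate 1 and triangles for replicate 2; genes left of the dotted line were lower and genes right of it higher with SGC-CBP30. For each gene both purple points lie on one side of both green points, for example 36.7 and 41.9 CPM against 274 and 185 CPM for Gzmb.

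The largest decreases held genes of several kinds. Ly6c2, a surface antigen of effector and memory CD8 cells, had 88.6 and 59.7 CPM with SGC-CBP30 and 430 and 221 CPM with Ctrl PIP (-2.13 ± 0.35, adjusted p from edgeR 0.018, lost without either SGC-CBP30 library). Its neighbour and near-copy Ly6c1 moved alike (-1.98), so reads may be split between them. Zbtb32, a repressor induced by stimulation, had 9.64 and 12.1 CPM against 40.9 and 41.5 CPM, with 32.2 and 56.7 CPM in DMSO (-1.92 ± 0.15, adjusted p 0.0049). The 3 were named under a rule that required groups without overlap. Batf3, a partner of JUN and IRF4 in the AP-1 family, was at a low level in all libraries and fell from 2.44 and 3.51 CPM to 0.26 and 0.357 CPM (-3.26 ± 0.38, adjusted p 0.011). S100a4, Tspan4, Cd163l1 and the tyrosine kinase gene Fgr were also among the 15 largest decreases, between -2.16 and -1.75. Bcl2a1d, which encodes an antiapoptotic BCL2 relative, had 4.22 and 4.43 CPM against 19.5 and 17.5 CPM (-2.09). Its copies Bcl2a1b (-1.14) and Bcl2a1a (-1.70, lost without SGC-CBP30 replicate 1) were lower as well, and reads of these near-identical genes cannot be assigned with certainty.

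Among 26 genes of activation and costimulation, 8 were lower and 0 higher (median -0.36; offset 8 lower and 1 higher), and all 8 were below both DMSO libraries. The lower count was 4 without SGC-CBP30 replicate 1. Il2ra, the high-affinity chain of the interleukin-2 receptor, had 48.3 and 48.1 CPM against 83.9 and 123 CPM (-1.10 ± 0.18, adjusted p from edgeR 0.015, lost without SGC-CBP30 replicate 1), and DMSO had 133 and 84.2 CPM. Tnfrsf8, the gene of CD30, had 1.95 and 2.89 CPM against 8.91 and 8.56 CPM (-1.85). Slc7a5, part of the main transporter of large neutral amino acids in activated T cells, had 59.9 and 60.6 CPM against 110 and 142 CPM (-1.06). Of the transcription factors that follow stimulation, Irf4 had 40.5 and 39.9 CPM against 68.9 and 61.1 CPM (-0.69, adjusted p 0.015), whereas Batf did not pass the test (33.2 and 31.8 against 43.7 and 39.7 CPM, -0.36). Among 23 AP-1, BATF and IRF factors 3 were lower and 2 higher (1 higher without SGC-CBP30 replicate 1). Cytokine genes were mostly at low levels: of 26, 16 were tested and 11 reached the count minimum in all 4 libraries, of which 1 was lower. A further lower one, Il13, reached it only in Ctrl PIP, had 0 counts in both SGC-CBP30 libraries, and lost its call with the offsets and without either SGC-CBP30 library. The lower count of 2 was 1 with the offsets, 1 without SGC-CBP30 replicate 1 and 3 without Ctrl PIP replicate 1. Il2 stood at 0.118 to 0.302 CPM.

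Myc, the transcription factor that drives growth of stimulated T cells, had 71.8 and 63.4 CPM with SGC-CBP30 and 154 and 126 CPM with Ctrl PIP, with 147 and 208 CPM in DMSO (-1.05 ± 0.14, adjusted p from edgeR 0.012; offset -0.95). The genes of a pair of MYC antagonists rose. Mxd4 had 84.3 and 77.7 CPM against 36.1 and 44.6 CPM (1.00) and Mxd1 had 48.0 and 47.8 CPM against 31.5 and 26.8 CPM (0.72). Mxd1 was above both DMSO libraries (34.3 and 26.1 CPM), while for Mxd4 DMSO replicate 1 reached the SGC-CBP30 level (81.9 CPM). Of 12 tested members of the MYC network 4 were higher and 1, Myc itself, was lower (2 higher without SGC-CBP30 replicate 1). Ribosome biogenesis, a classic target programme of MYC, lay below Ctrl PIP nearly throughout. Of its 53 genes 52 had a log2 fold change below 0 and 39 passed as lower with 0 higher, at a median of -0.68 (offset -0.69, 46 lower). Leaving out single libraries gave 27 to 40 lower genes. Of the 39, 35 were below both DMSO libraries. Gnl3, the nucleolar GTPase nucleostemin, had 36.4 and 40.6 CPM against 81.5 and 86.2 CPM (-1.12 ± 0.11, adjusted p 0.010), and Bysl, needed to build the small subunit, had 21.4 and 21.6 CPM against 43.8 and 49.7 CPM (-1.12 ± 0.12, adjusted p 0.011). The genes of the finished ribosome's own proteins were also below 0 in 80 of 80, but 0 were called, with a median of -0.21 that turned to 0.07 with the offsets. The difference between these lists was not tested.

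Biosynthetic enzymes were called mostly in the same direction. Of 41 genes for amino acid, polyamine and nucleotide synthesis 24 were lower and 0 higher (median -0.55; offset -0.54, 22 lower; 9 without SGC-CBP30 replicate 1), and 12 of the 24 were below both DMSO libraries. Srm, which encodes spermidine synthase, had 37.8 and 45.9 CPM against 104 and 115 CPM (-1.39 ± 0.13, adjusted p from edgeR 0.0089). Shmt1, an enzyme of one-carbon metabolism, had 19.7 and 23.9 CPM against 47.0 and 56.4 CPM (-1.25). DMSO replicate 1 lay between the groups for both genes, at 54.9 CPM for Srm and 30.3 CPM for Shmt1. Of 39 genes for cholesterol and fatty acid synthesis 12 were lower and 2 higher (median -0.36; offset -0.46, 15 lower; 6 lower and 0 higher without SGC-CBP30 replicate 1), and 9 of the 12 were below both DMSO libraries. Hmgcs1, early in the cholesterol pathway, had 66.1 and 79.2 CPM against 134 and 130 CPM (-0.86), and the cholesterol exporter gene Abca1 was one of the higher members, with 18.0 and 17.0 CPM against 6.35 and 9.52 CPM (1.14, lost without SGC-CBP30 replicate 1). Aminoacyl-tRNA synthetases were lower in 10 of 20 (median -0.41; offset 13 lower; 1 without SGC-CBP30 replicate 1), and chaperones in 15 of 29 (median -0.49; offset 15 lower; 4 without SGC-CBP30 replicate 1). Both SGC-CBP30 libraries were below both DMSO libraries for 8 of the 10 synthetases but for 3 of the 15 chaperones. In glycolysis 4 of 28 were lower, among them the hexokinase gene Hk2 (27.3 and 33.9 against 59.9 and 51.1 CPM, -0.86) and the lactate transporter gene Slc16a1 (-0.83); 9 were lower without Ctrl PIP replicate 2 and 2 with the offsets and without each of Ctrl PIP replicate 1 and SGC-CBP30 replicate 1. None of the 4 glycolysis genes was below both DMSO libraries.

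**Figure D4:**
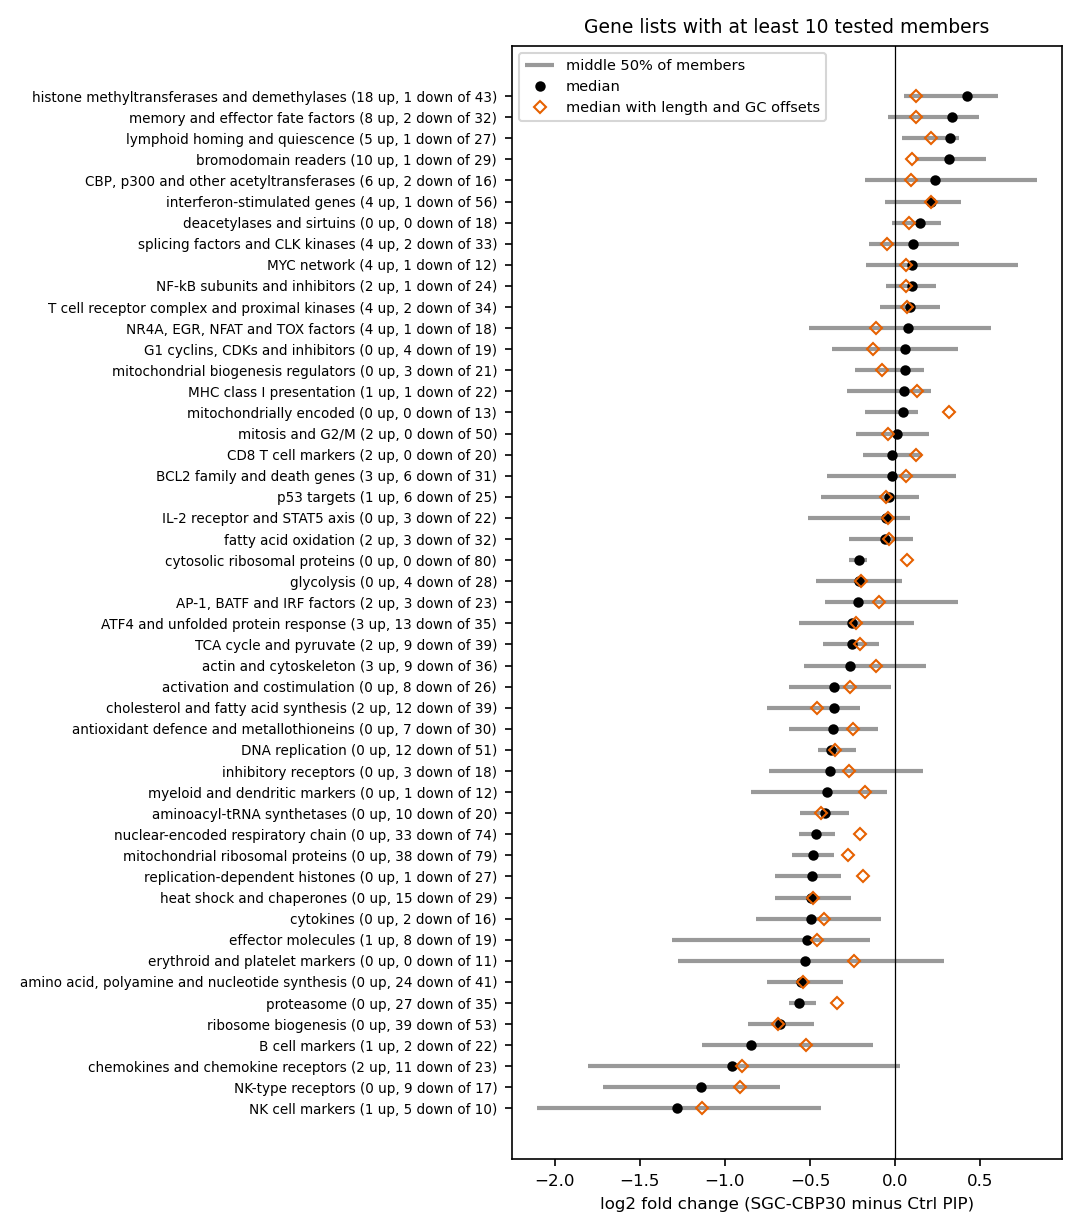
Median log2 fold change (black circle) and middle 50% of members (grey bar) for each gene list with at least 10 tested members, with the median after length and GC offsets as an orange diamond; the counts of members called higher (up) and lower (down) stand beside each name. Ribosome biogenesis (-0.68) kept its place with the offsets (-0.69), while the respiratory chain moved from -0.47 to -0.21.

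Proteasome and mitochondrial genes were also called as lower, and their medians came closer to 0 with the length and GC offsets. Of 35 proteasome genes 27 were lower (median -0.56; offset -0.34, 12 lower), of 79 mitochondrial ribosomal proteins 38 were lower (median -0.48; offset -0.28, 24 lower), and of 74 nuclear-encoded respiratory chain genes 33 were lower (median -0.47; offset -0.21, 12 lower). None of these lists had a higher member. Their median transcript lengths were 1819, 1884 and 1093.5 bases, all short. Without SGC-CBP30 replicate 1 the lower counts were 2, 5 and 6. Without Ctrl PIP replicate 1 the mitochondrial ribosomal list had 21 and the respiratory chain list 12, and without Ctrl PIP replicate 2 the latter had 52. The DMSO range enclosed both group means for 21 of the 27 lower proteasome genes, 30 of the 33 respiratory chain genes and 17 of the 38 mitochondrial ribosomal protein genes, of which 16 were below both DMSO libraries. Among the lists above it did so for 3 of the 39 lower ribosome biogenesis genes, 10 of the 15 chaperones and 3 of the 4 glycolysis genes, against 39.6% of all lower genes. Cycs, the gene of cytochrome c, is an example: it had 54.4 and 60.8 CPM with SGC-CBP30 and 105 and 97.3 CPM with Ctrl PIP (-0.82 ± 0.11, adjusted p from edgeR 0.013), and 64.0 and 158 CPM in DMSO. Of the 13 mitochondrially encoded genes 0 were called, with a median of 0.04 (offset 0.32, 2 higher). Pprc1, a coactivator of the PGC-1 family induced with growth, was lower (-0.94, offset -1.12). It had 36.7 and 33.8 CPM against 64.1 and 71.2 CPM. Ppargc1b did not pass the test, and Ppargc1a had 0 to 3 counts in each library and was not tested. Fatty acid oxidation genes were called at shares near those of all genes tested (6.25% against 7.27% higher, 9.38% against 8.51% lower). Cpt1a, which controls the entry of fatty acids into mitochondria, went up from 91.0 and 84.3 CPM to 154 and 156 CPM (0.82 ± 0.11, adjusted p 0.012), and 5 of 32 fatty acid oxidation genes were called, 2 higher and 3 lower (1 lower without Ctrl PIP replicate 1 and 0 without SGC-CBP30 replicate 1).

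Genes of mitosis showed no common direction. Of 50 genes of mitosis 2 were higher and 0 lower, with a median of 0.01; without SGC-CBP30 replicate 2 the median was -0.27 with 7 lower, and without SGC-CBP30 replicate 1 5 were higher. By contrast, 12 of 51 DNA replication genes were lower (median -0.37; offset 6 lower; 8 without Ctrl PIP replicate 1, 1 without SGC-CBP30 replicate 1 and 28 without SGC-CBP30 replicate 2). For 11 of these 12 the DMSO range enclosed both group means. Of the 51 DNA replication genes, 47 had a log2 fold change below 0 (50 with the offsets). Their median stayed between -0.55 and -0.20 when single libraries were left out. Mki67, the proliferation marker, had 933 and 1240 CPM against 659 and 743 CPM (0.63, adjusted p from edgeR 0.048), a call that was lost with the offsets and without Ctrl PIP replicate 1 or SGC-CBP30 replicate 2.

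**Figure D5:**
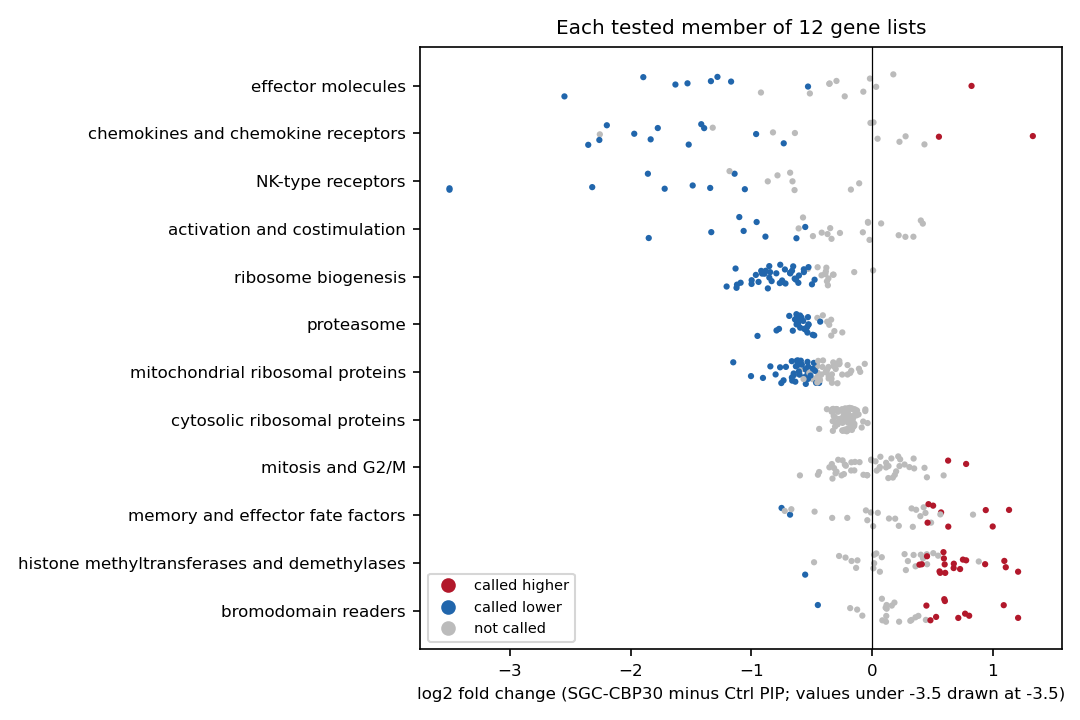
Log2 fold change between SGC-CBP30 and Ctrl PIP (horizontal axis) of each tested member of 12 gene lists (rows, points spread vertically for legibility), red for members called higher, blue for lower and grey for those not called. Members of ribosome biogenesis and the mitochondrial ribosome lie almost all on the left, effector molecules and chemokine genes reach beyond -2 with a few members on the right, and cytosolic ribosomal proteins form a narrow uncalled group.

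On the higher side, a pair of β-tubulin genes rose. Tubb2b had 41.0 and 39.8 CPM against 11.8 and 8.36 CPM, with 17.2 and 9.91 CPM in DMSO (2.0 ± 0.18, adjusted p from edgeR 0.0087), and Tubb2a had 58.2 and 61.6 CPM against 27.2 and 24.7 CPM, with 36.0 and 24.3 CPM in DMSO (1.21 ± 0.12, adjusted p 0.0089). The 2 genes are close copies on chromosome 13, and another β-tubulin gene, Tubb6, was lower (-1.61, lost without SGC-CBP30 replicate 1). Serinc5, a membrane protein known to restrict retroviruses, had 57.3 and 56.0 CPM against 18.5 and 20.8 CPM (1.53 ± 0.12, adjusted p 0.0049), but DMSO replicate 1 had a like level of 56.4 CPM. For 2 of the largest increases DMSO replicate 1 lay above both SGC-CBP30 libraries. Zbtb20, a transcription factor gene, had 18.1 and 8.51 CPM against 2.06 and 2.84 CPM and 27.3 and 1.05 CPM in DMSO (2.44, lost without either Ctrl PIP library). Kcna3, the main voltage-gated potassium channel of T cells, had 54.9 and 36.7 CPM against 9.11 and 17.5 CPM and 91.8 and 4.33 CPM in DMSO (1.78, lost without either SGC-CBP30 library).

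Transcription factors of memory and effector fate were called in both directions. Of 32 tested, 8 were higher and 2 lower (median 0.33; offset 0.12, 7 higher and 1 lower), and the higher count was 3 without Ctrl PIP replicate 1 and 3 without SGC-CBP30 replicate 1, with 4 lower without Ctrl PIP replicate 2. Eomes, a T-box factor of effector and memory cells, had 42.1 and 45.4 CPM against 70.4 and 69.6 CPM and 64.1 and 73.1 CPM in DMSO (-0.68 ± 0.11, adjusted p from edgeR 0.014). Its relative Tbx21 (T-bet) had 29.4 and 32.4 CPM against 60.2 and 43.8 CPM (-0.75), a call that was lost with the offsets, without Ctrl PIP replicate 1 and without either SGC-CBP30 library. Both T-box genes were below both DMSO libraries. Klf3, a repressor of the Krüppel family, had 208 and 177 CPM against 87.6 and 113 CPM (0.94 ± 0.15, adjusted p 0.015). Both SGC-CBP30 libraries were above the 159 and 53.8 CPM of DMSO. The DMSO range enclosed both group means for 55.0% of all higher genes and for 6 of the 8 here. These include Hif1a, the hypoxia factor gene, with 344 and 360 CPM against 193 and 159 CPM and 385 and 141 CPM in DMSO (1.00 ± 0.13, adjusted p 0.013). Tcf7, which maintains stem-like and naive cells, did not pass the test (1960 and 1850 against 1310 and 1410 CPM, 0.49, adjusted p 0.058) and was called with the offsets (0.58, adjusted p 0.032). Among 27 genes of lymphoid homing and quiescence 5 were higher and 1 lower (median 0.32; offset 0.21, 4 higher; 3 higher without Ctrl PIP replicate 1 and 1 without SGC-CBP30 replicate 1).

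The genes of the targeted coactivators were themselves higher. Ep300, on chromosome 15 at 81586209 to 81652077, had 207 and 168 CPM with SGC-CBP30 and 82.1 and 95.3 CPM with Ctrl PIP (1.08 ± 0.14, adjusted p from edgeR 0.012; offset 0.62, adjusted p 0.016). Crebbp, on chromosome 16 at 4081334 to 4213957, had 157 and 113 CPM against 61.7 and 76.7 CPM (0.96 ± 0.18, adjusted p 0.019), and its call was lost with the offsets (0.44) and without SGC-CBP30 replicate 1. Neither gene stood apart from the solvent control, where the libraries had 212 and 51.2 CPM for Ep300 and 142 and 38.5 CPM for Crebbp. Part of the other chromatin genes were higher, fewer of them with the offsets. Of 16 acetyltransferases 6 were higher and 2 lower (median 0.23; offset 0.09, 2 higher; 1 higher and 0 lower without SGC-CBP30 replicate 1), of 29 bromodomain readers 10 were higher and 1 lower (median 0.32; offset 0.10, 3 higher; 5 higher without Ctrl PIP replicate 1 and 0 without SGC-CBP30 replicate 1), and of 43 histone methyltransferases and demethylases 18 were higher and 1 lower (median 0.42; offset 0.12, 4 higher; 10 higher without Ctrl PIP replicate 1 and 5 without SGC-CBP30 replicate 1). Their median transcript lengths were 5890, 5921 and 6359 bases. The DMSO range enclosed both group means for 6 of the 6, 10 of the 10 and 14 of the 18 higher members, against 55.0% of all higher genes. Of 18 deacetylases and sirtuins 0 were called.

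Among markers of other cell types, the shares called for B and myeloid cells lay near those of all genes tested (7.27% higher and 8.51% lower). Of 10 tested NK cell markers 8 reached the count minimum in all 4 libraries, of which 4 were lower and 1 higher; over all 10, 5 were lower (1 with the offsets, 1 without SGC-CBP30 replicate 1 and 2 without SGC-CBP30 replicate 2); 4 of these 5 belong to the receptor list above, the fifth is Eomes, and the higher one is Gzma. The summed level of 12 tested myeloid and dendritic markers was 60.5 and 47.2 CPM with SGC-CBP30 against 99.5 and 69.2 CPM, with 1 of 12 lower (8.33%): Itgax, the gene of CD11c, which activated CD8 cells can express too, at 0.706 and 0.940 CPM against 4.03 and 4.35 CPM (-2.35). The 22 tested B cell markers summed to 959 and 861 CPM against 816 and 749 CPM, with 2 lower (9.09%, Cd22 and Cd74) and 1 higher (4.55%, Ighd). The call of Cd74 was lost with the offsets and without either SGC-CBP30 library, and that of Ighd without either SGC-CBP30 library. Over the 16 that reached the count minimum in all 4 libraries the median was -0.72, and the median of -0.85 over all 22 became 0.25 without Ctrl PIP replicate 1, while 8 were lower without Ctrl PIP replicate 2. The part of these cells in the results above was not tested, and in bulk samples fewer cells of a type and less RNA per cell cannot be told apart.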

How the data were processed

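RNA-seq libraries were made with a stranded mRNA kit, per the labels' protocols. The authors deposited raw counts per gene and regularised log2 values for 8 libraries; HISAT2, StringTie, DESeq2 and the mm10 build are named in the submitters' processing notes, without versions or roles, and the sources used here do not state how shared reads and strand were counted. The 4 libraries of SGC-CBP30 and Ctrl PIP (50545906 to 53654673 counts) were tested with edgeR 4.0.16 in R 4.3.3: TMM scaling, a filter on low counts that left 15660 genes, robust quasi-likelihood fits and a two-sided test, adjusted by Benjamini-Hochberg over all genes tested (threshold 0.05). CPM values are scaled over the 4 libraries; DMSO values are scaled over all 8, which moved the CPM of the 4 by at most 1.88%. The common coefficient of variation was 0.154 over 4 libraries and 0.415 over 8. The 95% interval of a log2 fold change reached a median of 0.389 to either side. On simulated data for this comparison, with 200 of 15660 genes changed, 25.0% of 1.5-fold, 66.0% of 2-fold and 85.5% of 4-fold changes were recovered.

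Alternatives were DESeq2 1.42.0, its size factors, other count filters, limma 3.58.1 on the deposited log2 values, all 8 libraries, a replicate block, each library left out and offsets for length and GC content (mgcv 1.9.3; GENCODE M21 lengths for 92.9% of genes tested). Counts per list under left-out libraries and offsets were added after seeing the data. The members, the 52 gene lists and the tests were chosen with earlier results of these data known, so no list is independent support. No set was tested: lists are given by counts and medians.

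Named genes were, first, among genes called whose groups did not overlap and whose larger group mean reached 5 CPM, the 15 largest changes and the 5 smallest p in each direction and the 15 largest also called with offsets. With no minimum level, they also were up to 3 called members per list and direction by p (or the smallest p where none was called), and a set of 23 genes of the pathway, of which Ppargc1a could not be tested. Gene symbols were matched by identifier to RefSeq (99.8% of identifiers), and coordinates and promoters are from RefSeq on GRCm38.p6, with a promoter for 71.2% of genes tested. The labels do not say whether equal replicate numbers mark a shared animal or day, and the main fit did not pair libraries. The deviations of same-numbered libraries from their group means had a correlation of -0.05 across genes, which cannot exclude such a link. Some items that the rule names are not reported here.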

Additional observations from a re-analysis of the deposited data

How the results depend on the processing

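The counts of 1138 higher and 1332 lower genes stayed within 1.5 times with DESeq2's test (1609 and 1799), DESeq2's size factors, no count filter, a filter at 5 CPM, no robust estimation and limma on the deposited log2 values. They became 0 and 0 with all 8 libraries, whose spread is wider, and 226 and 252 with a log2 fold change of at least 1 required. Length and GC offsets gave 597 higher genes. Leaving out 1 library each gave 226 to 1698 higher and 344 to 1654 lower genes, the fewest without SGC-CBP30 replicate 1; the lone library is then assumed to vary like the other group. A replicate block gave 5 higher and 9 lower genes, and 146 and 462 with the offsets. It left 1 residual degree of freedom, and the labels name no source that equal numbers share (correlation of deviations -0.05). The number of lists with a median below 0 was 34 of 52 and 30 to 38 under the alternatives. No named gene that passed the test changed direction under the alternatives run. Many were named because their groups did not overlap, and the alternatives share the same libraries, so this was largely set in advance. Calls were lost for 184 named genes with all 8 libraries and for 173 with the replicate block. With 2 libraries per group, changes under 2-fold are often missed.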

Other observations

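Some genes were read in only one group or in single libraries. E130102H24Rik had 109 and 147 counts with Ctrl PIP and 0 in both SGC-CBP30 libraries, which makes it at least 45.3-fold lower against a floor of 3 counts per library. It passed the count filter only through Ctrl PIP, so that the filter set its direction, and the fold rests on the chosen floor. Gm15564, a non-coding gene chosen after its values were seen, had 1482 and 3520 counts with SGC-CBP30 and 0 in both Ctrl PIP libraries. In the other groups it had 4907 counts in DMSO replicate 2 and 7488 in EnPGC-1 replicate 2, and 0 in DMSO replicate 1 and EnPGC-1 replicate 1, so its presence did not follow the treatments.

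Interferon-stimulated genes, of which 56 were tested, had 4 higher (7.14%, against 7.27% of all genes tested) and 1 lower member with SGC-CBP30. The higher count was 1 with length and GC offsets, 1 without SGC-CBP30 replicate 1 and 10 without SGC-CBP30 replicate 2. They had a median log2 fold change of 0.21, which became -0.08 without SGC-CBP30 replicate 1. Iigp1, an interferon-induced GTPase, kept its call without each library and with length and GC offsets, at 176 and 158 CPM against 105 and 102 CPM, while the DMSO libraries had 198 and 78.0 CPM. Among 34 genes of the T cell receptor complex and its proximal kinases 4 were higher (11.8%) and 2 lower (5.88%), near the 7.27% and 8.51% of all genes tested. Their higher count was 1 with the offsets (3 lower), 1 without Ctrl PIP replicate 1 and 0 without SGC-CBP30 replicate 1. Ptpn6, the gene of the phosphatase SHP-1, had 141 and 148 CPM with SGC-CBP30 against 240 and 227 CPM with Ctrl PIP and 171 and 276 CPM in DMSO. Bach2, a repressor that holds back effector differentiation, had 195 and 180 CPM against 93.8 and 117 CPM, with 215 and 65.9 CPM in DMSO, and Ikzf3, the gene of Aiolos, had 452 and 357 CPM against 154 and 208 CPM, with 568 and 115 CPM in DMSO.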
